A study of Mus musculus with 24 samples.

Results

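The arrays described here are the 16 of the series' 24 that were taken during the first and the ninth hour of the resting period, 8 for each hour, chosen by the hour given in their labels. Their question is how the effect of corticosterone on hippocampal gene expression changed over these hours, that is, which genes faded, grew or reversed. Male Swiss-Webster mice, 12 weeks of age, were moved to single cages and left undisturbed for some weeks to habituate. They were therefore older when treated. Treated mice then drank corticosterone (100 µg/mL) with hydroxypropyl-β-cyclodextrin (0.45%) during the 12 h dark phase, when mice are active. Control mice drank water with the cyclodextrin alone. Animals of both kinds were killed during the first, the fifth or the ninth hour of the light phase that followed, and the hippocampus was taken. The 24 arrays hold 48 animals, among them brothers from the same litters, without pooling. Each array compared the RNA of 1 control animal in the Cy3 channel with that of 1 corticosterone-treated animal in the Cy5 channel.

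Corticosterone is the main glucocorticoid of rodents. It enters cells and binds the glucocorticoid receptor, and the receptor then moves to the nucleus and raises or lowers the transcription of its target genes, in neurons, glia and blood vessels alike. Many targets are brakes on other processes, such as insulin and growth factor signalling, inflammation and cell division. One of them, *Fkbp5*, lowers the receptor's affinity for the hormone.

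A slide holds 8 arrays. The first-hour arrays lay 2, 3 and 3 on slides 1, 2 and 3, and the ninth-hour arrays 4, 2 and 2. The median spot had an intensity of 93.5 to 105 in the control channel and 142 to 185 in the corticosterone channel for the first hour, and of 92.0 or more and 139 to 166 for the ninth. Well above background, by the scanner software, were 60.8 to 67.2% and 61.3 to 66.4% of the control spots at these hours, and 68.4 to 73.5% and 67.3 to 72.1% of the corticosterone spots. The number of arrays limits the precision. The quantity followed below is the log2 ratio of the corticosterone-treated over the control animal of an array. The difference of this ratio between the hours, ninth minus first, was tested by limma for each of 56605 probes, with adjusted p values under 0.05 as the threshold. Because the dyes were never exchanged, a constant dye bias of a probe stays in the effect at a single hour and cancels in the difference. The sorting into classes below can therefore hold dye bias, while the test of the difference is free of a constant one. A dye bias that varied between slides would not cancel fully, since the hours lay unevenly on the slides. The p values measure spread between arrays, which holds that between animals and that of labelling and hybridization, since each animal was measured once. Litter is not in the fit, so brothers were treated as independent.

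By the ninth hour the effect of corticosterone had changed for 468 of the 56605 probes (0.827%). The ratio was lower during the ninth hour for 325 of them (0.574%) and higher for 143 (0.253%). Taking each gene by its brightest probe, 345 of 23787 genes passed (1.45%), 228 with a lower (0.959%) and 117 with a higher ratio (0.492%). The differences ran from -2.72 (*Plin4*) to 1.09 on the log2 scale. The 8 first-hour ratios and the 8 ninth-hour ratios did not overlap for 211 probes of all tested (0.373%), and 166 of these were among the 468 (35.5%). Every array of the first hour and every array of the ninth had opposite signs for 49 of all 56605 probes (0.0866%) and for 41 of the 468 (8.76%). At the single hours, 9918 probes (17.5%) differed between treated and control animals during the first hour, 10241 (18.1%) during the fifth and 7910 (14%) during the ninth.

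Of the 468 probes, 330 faded, that is, their effect passed the test during the first hour and was smaller during the ninth, without having reversed as defined below. In 228 of these corticosterone had raised the signal, with a median log2 ratio of 0.47 during the first and -0.04 during the ninth hour, and in 102 it had lowered it, with medians of -0.38 and 0.05. A further 71 probes grew, with an effect that passed the test during the ninth hour and was larger than at first. This count was 42 without ninth-hour replicate 4, 44 without replicate 2 and 47 without replicate 6 of that hour. Of the 71, 28 ended higher (medians -0.12 and 0.27) and 43 ended lower (0.09 and -0.31) in treated animals. Another 66 probes reversed, with effects of opposite sign that each passed the test, 53 from higher to lower (0.31 and -0.30) and 13 from lower to higher (-0.33 and 0.25). The remaining probe belonged to none of these classes. The split depends on the tests at single hours. By the size and sign of the effects alone, 114 probes faded, 6 grew and 348 reversed. Counted as genes, 245 faded (162 from higher, 83 from lower), 52 grew (22 to higher, 30 to lower) and 48 reversed (36 from higher, 12 from lower).

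**Figure D1:**
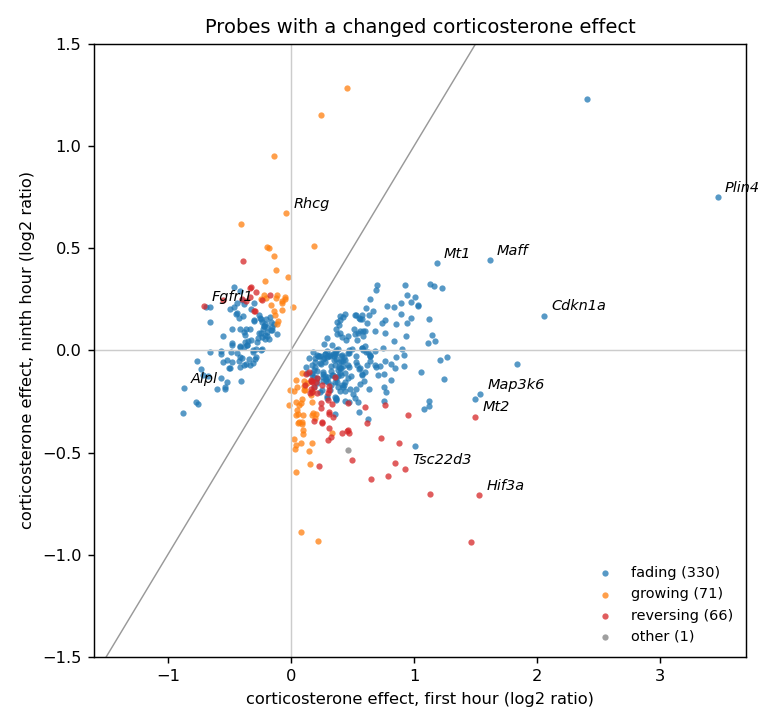
Corticosterone effect (log2 ratio) of each called probe during the first hour (horizontal axis) and the ninth hour (vertical axis), coloured by class. Of the 468 probes, 325 lie below the diagonal of equal effects and 143 above it.

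The signs of the 468 differences were the same in each of the 3 slides for 464 probes, against 14480 of all 56605. The 468 were selected on these same arrays, so this is no separate test. With slide as a block, the median difference was -0.52 in place of -0.51 for probes fading from higher and 0.39 in place of 0.41 for those fading from lower. Within slides 1, 2 and 3 the medians were -0.48, -0.42 and -0.63 for the former group and 0.33, 0.42 and 0.39 for the latter. For probes growing to higher the block gave 0.40 and the slides 0.30, 0.46 and 0.37, and for those growing to lower -0.40 and -0.38, -0.33 and -0.47. For probes reversing from higher the block gave -0.60 and the slides -0.66, -0.51 and -0.70, and for those reversing from lower 0.60 and 0.64, 0.58 and 0.57.

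The genes with the widest fading included a coat of lipid droplets, a brake on the cell cycle and a stress kinase. *Plin4* (NM_020568), which coats lipid droplets, had the largest change. Its 8 log2 ratios had a lowest, median and highest value of 2.60, 3.58 and 4.04 during the first hour and of -0.02, 0.66 and 1.31 during the ninth. These sets did not overlap, and the treated animal was still higher on 7 of 8 arrays at the end. In signal intensity, the median control animal had 167 and the median treated animal 1892 during the first hour, against 119.5 and 205 during the ninth. The difference of the effect was -2.72 (SE 0.269, limma adjusted p = 4.1e-10). *Cdkn1a* (NM_007669), the p21 inhibitor that arrests the cell cycle, had ratios of 0.72, 2.21 and 2.83 (again lowest, median and highest) and then of -0.24, 0.20 and 0.40, with a difference of -1.89 (SE 0.250, adjusted p = 1.3e-06). Its sets were apart as well, and the treated animal was still higher on 7 of 8 ninth-hour arrays. *Map3k6* (NM_016693), a stress-activated kinase, had ratios of 0.67, 1.64 and 2.07 at first and of -0.55, -0.19 and 0.11 later, without overlap. *Pmaip1* (NM_021451), which encodes the cell death promoter Noxa, went from 0.47, 1.28 and 2.14 to -0.18, -0.06 and 0.20, also without overlap. *Acer2*, a ceramidase of the Golgi, *Plekhf1*, an endosomal protein linked to cell death, *Tekt4*, a microtubule protein of cilia, and *Tmem52* complete this group of 8, with differences of -1.37, -1.39, -1.26 and -1.73. All 8 were higher in the treated animal on 8 of 8 arrays during the first hour. *Tmem52* was dim, with a signal intensity of 58.6, and its control spot was well above background on 4 of 8 first-hour arrays.

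Among genes that had been lowered and returned, *Hes5* (NM_010419), the Notch-driven repressor that holds neural stem cells back from becoming neurons, had ratios of -1.16, -0.61 and -0.18 during the first hour and of -0.12, 0.23 and 0.66 during the ninth, with a difference of 0.87 (SE 0.131, adjusted p = 1.2e-05). The treated animal was lower on all 8 first-hour arrays and higher on 6 of 8 ninth-hour arrays, with no overlap. *Pcdh12* (NM_017378), a cadherin of endothelial cells, had ratios of -1.49, -0.72 and -0.07 and then of 0.03, 0.16 and 0.47, below 0 on every array at first and above 0 on every array later. *Cdc42ep1*, an effector of the small GTPase Cdc42, changed by 0.70 and *Tmprss5*, a membrane serine protease, by 0.79, both without overlap. For *Bcl3*, a nuclear partner of NF-κB, *Alpl*, the tissue-nonspecific alkaline phosphatase, *Cd93*, a surface protein of endothelium, and *Derl3*, which serves protein export from the endoplasmic reticulum, the hours overlapped, and the differences were 0.77, 0.68, 0.65 and 0.71. The *Derl3* call (adjusted p = 0.047) was lost with slide as a block and without each of 11 of the 16 arrays (differences of 0.59 to 0.81). That of *Tmprss5* was lost without first-hour replicates 4 and 7 and without ninth-hour replicate 2, with differences of 0.72 to 0.85 over all 16 omissions.

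Among genes that reversed from higher to lower, *Mt2* (NM_008630), the zinc-binding metallothionein 2, had ratios of 1.04, 1.58 and 1.84 during the first hour and of -0.67, -0.29 and -0.17 during the ninth. Every array was above 0 at first and below 0 later. Its difference of -1.82 (SE 0.112, adjusted p = 6.6e-17) had the smallest p value of the genes named here. *Tsc22d3* (NM_010286), the leucine zipper protein GILZ that carries part of the hormone's anti-inflammatory action, had ratios of 0.05, 0.98 and 1.67 and then of -0.79, -0.58 and -0.31, a difference of -1.51 (SE 0.139, adjusted p = 1.2e-10). Its arrays, too, were all above 0 at first and all below 0 later. *Nfkbia*, which holds NF-κB in the cytoplasm, *Fas*, the death receptor, *Mc4r*, the melanocortin receptor that curbs food intake, *Atp10a*, a lipid flippase, and *Paqr5*, a membrane progestin receptor, were likewise above 0 on 8 of 8 arrays during the first and below 0 on 8 of 8 during the ninth hour. Their differences were -1.03, -1.40, -1.28, -1.33 and -1.39. *Hif3a* (NM_016868), an oxygen-regulated transcription factor, had the widest difference of these 8 genes, -2.24 (adjusted p = 1.1e-05), but its ratios of -0.20, 1.57 and 2.44 and later of -1.35, -0.69 and 0.19 overlapped.

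Fewer genes reversed from lower to higher. *Fgfrl1* (NM_054071), a decoy-like receptor for fibroblast growth factors, had ratios of -1.03, -0.73 and -0.27 during the first hour and of 0.09, 0.22 and 0.32 during the ninth, a difference of 0.92 (SE 0.0931, adjusted p = 7.8e-10). *Meox1* (NM_010791), a homeobox transcription factor, had ratios of -0.72, -0.42 and -0.07 and then of 0.29, 0.39 and 0.70, a difference of 0.83 (SE 0.113, adjusted p = 1.6e-06). In both genes every first-hour array was below 0 and every ninth-hour array above it. *Aif1l*, an actin-binding protein, *Cxcr4*, the receptor of the chemokine CXCL12, and *Micall2*, a junction protein, did not overlap either, with differences of 0.64, 0.64 and 0.59. *Cldn5*, the main seal of the blood-brain barrier, *Kdr*, the receptor for vascular endothelial growth factor, and *Ddit4l*, a brake on mTOR, overlapped, with differences of 0.60, 0.57 and 0.64. The call of *Ddit4l* (adjusted p = 0.014) was lost with slide as a block, without first-hour replicate 4 and without ninth-hour replicate 4 (differences of 0.54 to 0.72 over all omissions).

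Among growing genes whose signal ended higher in treated animals, *Rhcg* (NM_019799), an ammonia transporter, had ratios of -0.29, -0.06 and 0.25 during the first hour, scattered around 0, and of 0.28, 0.68 and 1.05 during the ninth, all above it, a difference of 0.71 (SE 0.158, adjusted p = 0.0082). *Etv4* (NM_001316365), a transcription factor downstream of fibroblast growth factors, had ratios of -0.47, -0.05 and 0.01 and then of 0.20, 0.42 and 0.48, apart by a gap, and a difference of 0.52 (SE 0.0829, adjusted p = 6.3e-05). *Fzd9*, a Wnt receptor, was also without overlap (0.60). *Gpr84*, a receptor for medium-chain fatty acids on microglia, *Hmcn1*, a matrix protein, *Fam181a*, *Nat8*, an acetyltransferase, and the uncharacterized transcript *Gm30908* overlapped, with differences of 0.70, 0.68, 0.55, 0.46 and 0.49. The last 2 calls were lost with slide as a block. Leaving out first-hour replicate 4 or 6 or ninth-hour replicate 3 lost *Nat8* (0.40 to 0.50 over all omissions), and leaving out first-hour replicate 7 or 8 or ninth-hour replicate 4 lost *Hmcn1* (0.58 to 0.75). The control spot of *Hmcn1* was well above background on 6 of 8 first-hour arrays and that of *Fam181a* on 7 of 8.

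Among growing genes whose signal ended lower in treated animals, *Cables1* (NM_022021), a cyclin-dependent kinase adaptor, had ratios of -0.21, 0.16 and 0.43 and then of -0.67, -0.58 and -0.13, a difference of -0.64 (SE 0.106, adjusted p = 5.9e-05). Its hours overlapped at the edges. *Lonrf3*, a ring finger protein (-0.62), and *Trp53bp2*, a partner of p53 (-0.49), did not overlap. *St8sia6*, a sialyltransferase, *Susd5*, *Wnt2*, a Wnt ligand, *Kcnk6*, a potassium leak channel, and *Abcg2*, an efflux pump of the blood-brain barrier, overlapped, with differences of -0.52, -0.51, -0.49, -0.49 and -0.44. All 8 genes were below 0 on 8 of 8 ninth-hour arrays. Without single arrays the calls of *Kcnk6* and *Gm30908* were each lost for 12 of the 16 arrays, with differences of -0.55 to -0.42 and of 0.43 to 0.56, and that of *St8sia6* for 8 (-0.58 to -0.46).

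**Figure D2:**
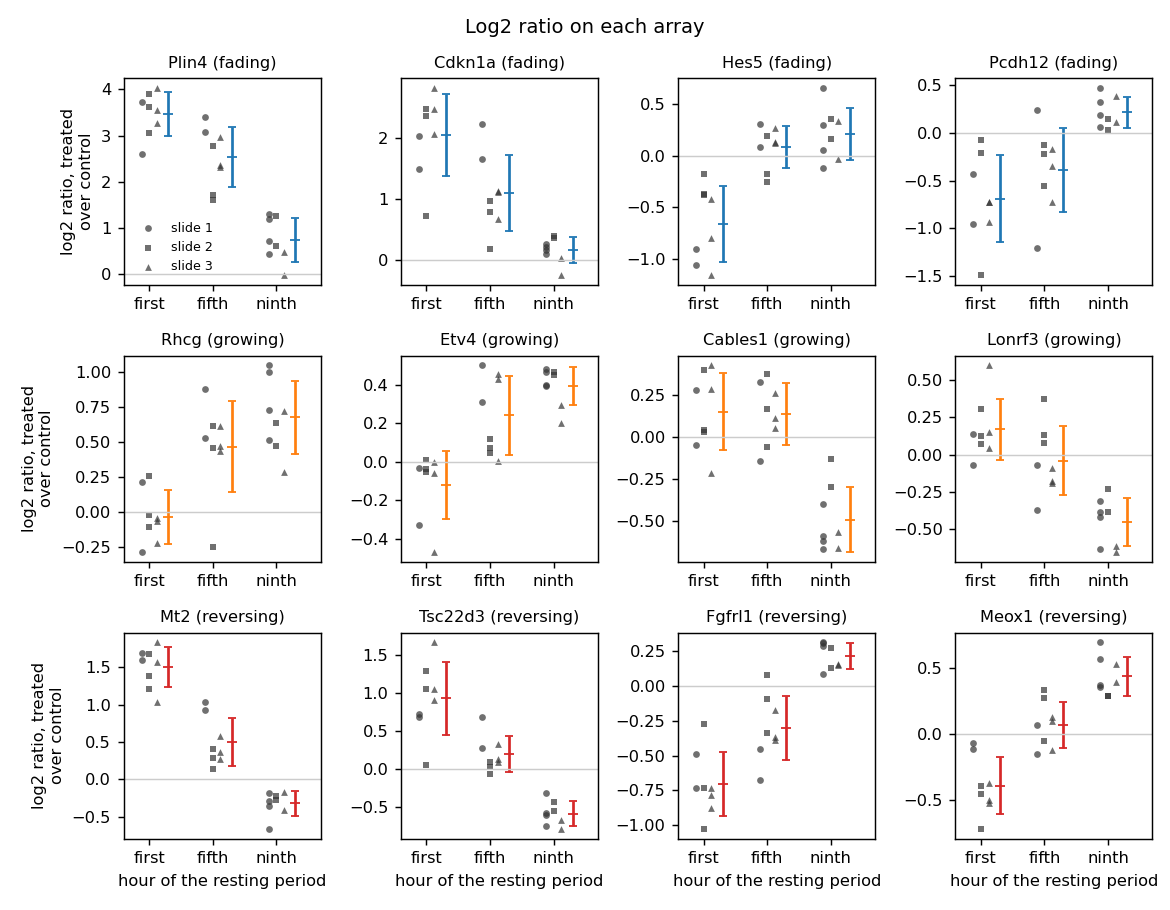
Log2 ratio of the corticosterone-treated over the control animal (vertical axis) on each of the 8 arrays of every hour (horizontal axis) for 12 genes; points are arrays, with a symbol for each slide, and coloured marks are means with SD. *Mt2* and *Tsc22d3* lie above 0 on all first-hour arrays and below 0 on all ninth-hour arrays, and *Fgfrl1* and *Meox1* do the opposite.

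A changed ratio can come from either animal of an array. Over these hours, 2277 probes (4.02%) changed in corticosterone-treated animals and 304 (0.537%) in control animals. Of the 468 probes, 411 passed the test in treated animals, 12 in control animals, 6 in both and 51 in neither. The change in treated animals was the larger for 429. Among all 56605 probes, 200 passed in both and 54224 in neither, and the treated change was the larger for 29296. Along the direction of the difference, the treated animals moved by a median of 0.41 and the controls by -0.06. For all 56605 probes these medians were 0.06 and -0.05, so the control value was near that of all probes. *Tsc22d3* was typical, since its treated animals fell by 1.47 and its controls changed by 0.04. *Mt2* was an exception. Its control signal rose from a median of 31851 to 69652, a change of 1.00 (adjusted p = 4.9e-10), while the treated signal went from 97707 to 53392, a change of -0.83 (adjusted p = 5.7e-09). *Mt1*, the second metallothionein, rose in controls by 0.45 (adjusted p = 4.8e-05) and changed by -0.31 in treated animals (adjusted p = 0.0012). *Cldn5* changed by -0.34 in control and by 0.27 in treated animals, both past the threshold. *Ramp2*, a partner of the adrenomedullin receptor named below, also changed in both, by 0.23 and -0.26. For *Derl3* the control change of -0.67 passed (adjusted p = 0.03) and the treated change of 0.04 did not (adjusted p = 0.93).

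**Figure D3:**
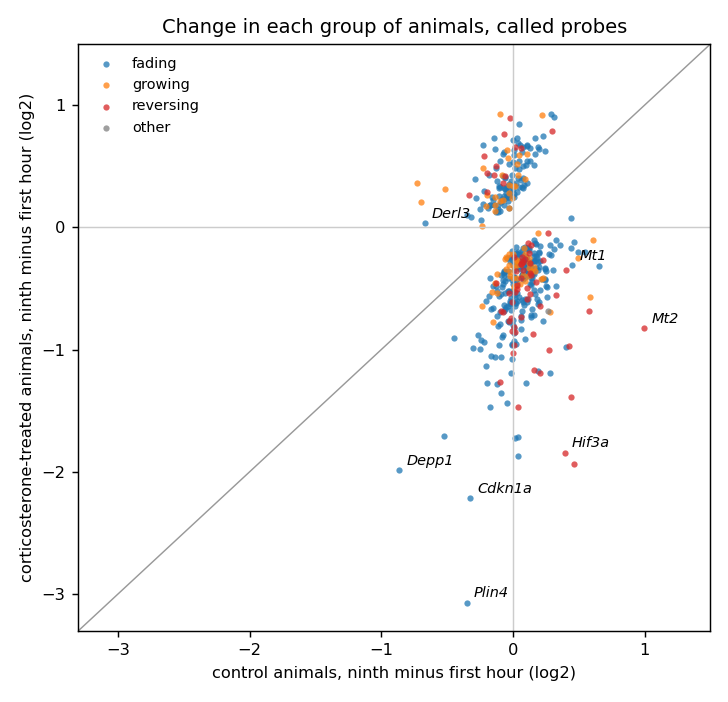
Ninth-hour minus first-hour signal (log2) in control animals (horizontal axis) and in corticosterone-treated animals (vertical axis) for the 468 called probes, coloured by class. Points spread along the vertical axis, since 429 probes changed more in treated animals (29296 of all 56605 probes). *Mt2* and *Mt1* lie to the right of 0.

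The arrays of the fifth hour stand outside the contrast and show how far the effects had moved by then. The fifth-hour effect lay between the first- and ninth-hour effects for 453 of the 468 probes (20321 of all 56605 probes), beyond the first-hour effect for 12 and beyond the ninth-hour effect for 3. It was nearer the ninth-hour effect for 173 (27688 of all probes). The median probe of the 468 had covered 42.7% of its change by the fifth hour, and that of all probes 47.6%. Among the genes that had moved most of their way by then were *Pdk4*, which shuts off glucose oxidation (98.8% of its change by the fifth hour), *Sgk1*, a kinase that regulates ion transport (86.3%), *Hes5* (84.9%), *Arrdc2*, an arrestin-like protein (80.4%), and *Nfkbia* (78.1%). Their effects over the 3 time points were 0.85, -0.02 and -0.03 for *Pdk4* and 0.71, -0.01 and -0.12 for *Sgk1*. Genes that had kept most of their first-hour effect to the fifth hour included *Alpl* (6.61% of its change by then), *Hif3a* (21.5%), *Per1* (22.8%) and *Mc4r* (23.9%). In *Cables1*, which had no first-hour effect past the threshold, 2.28% of the later change was there by the fifth hour. *Zbtb16*, a zinc finger repressor, and *Nr3c1*, the glucocorticoid receptor itself, had not moved by then, with effects of 0.26 and -0.55 during the fifth hour against 0.25 and -0.54 at first and -0.28 and -0.18 at the end. Speed was not tested between genes.

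**Figure D4:**
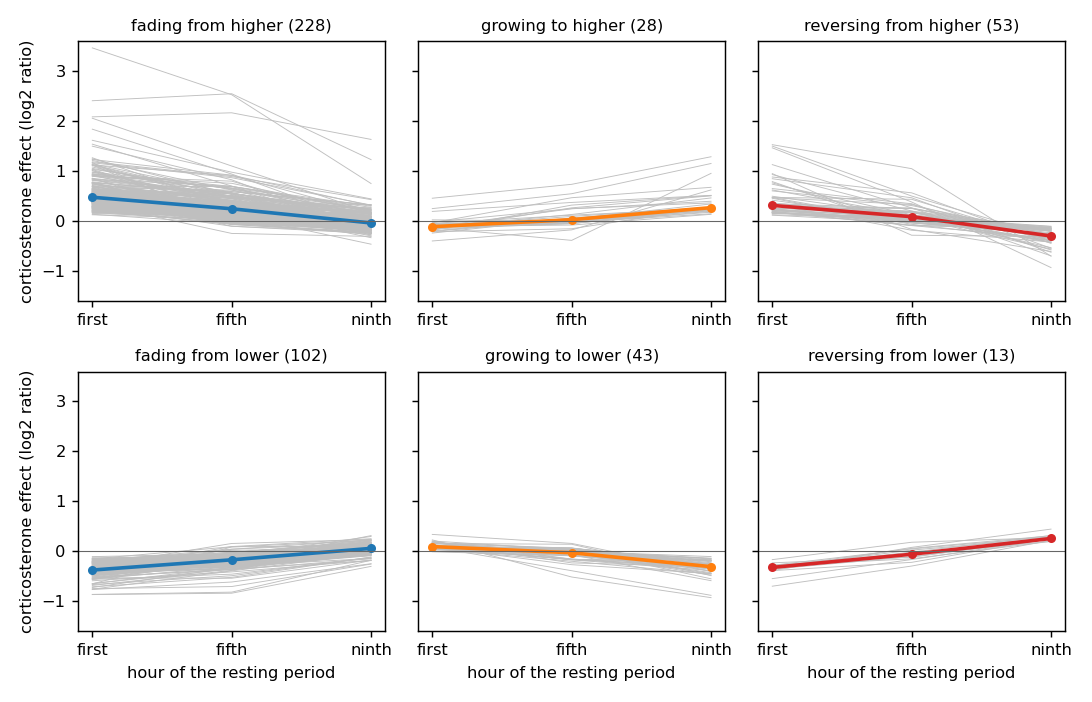
Corticosterone effect (log2 ratio, vertical axis) at the 3 time points (horizontal axis) for each called probe (grey) and the class median (coloured), by class and direction. The medians of probes fading from higher are 0.47, 0.24 and -0.04, and those of probes reversing from higher are 0.31, 0.08 and -0.30.

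Known targets of the glucocorticoid receptor were the list with the most change. This list was chosen with earlier results of these data known. It leans to genes that the authors found changed only early in the rest or reversed. Its count and median are therefore no independent test of such targets. Of 40 targets measured, 28 passed (beside 345 of 23787 or 1.45% of all genes), 27 with a lower and 1 with a higher ratio during the ninth hour, 19 fading, 8 reversing and 1 growing. The median difference of the 40 genes was -0.53, beside 0.01 for all 23787 genes, and the median effect went from 0.48 through 0.20 to -0.07 over the 3 time points. With slide as a block the median was -0.56, and within slides 1, 2 and 3 it was -0.55, -0.44 and -0.66. *Fkbp5* (NM_010220), the cochaperone that lowers the receptor's affinity for the hormone, had ratios of 0.26, 0.59 and 1.04 during the first and of -0.41, -0.27 and -0.14 during the ninth hour, above 0 and then below 0 on every array, and a difference of -0.88 (SE 0.116, adjusted p = 6.5e-07). *Sgk1* had ratios of 0.35, 0.70 and 1.22 and then of -0.32, -0.11 and 0.03, a difference of -0.83 (SE 0.103, adjusted p = 1.5e-07), again apart. *Ddit4*, a brake on mTOR, *Klf15*, a regulator of amino acid and glucose use, and *Errfi1*, an inhibitor of the epidermal growth factor receptor, changed by -0.69, -0.69 and -0.60, all without overlap. *Per1*, a clock gene with direct hormone control, faded by -0.31 from 0.27. *Klf9* was the growing member, with an effect of 0.06 at first and -0.35 at the end (adjusted p of the difference 2.5e-06). The member with a higher ratio was *Wnt7a* (0.35), whose call was lost with slide as a block, as was that of *Glul*, the glutamine synthetase (-0.23). These calls were also lost without 13 and 14 of the 16 single arrays, with differences of 0.33 to 0.39 and of -0.27 to -0.20.

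The promoters of the called genes were searched for letters known from glucocorticoid response elements, because the receptor's targets moved together. The motif GNACANNNTGTNC, read on both strands, occurs in the 250 bases before the start site in 127 of 32851 RefSeq start sites (0.387%) and in 5 of 366 start sites of 276 genes with a called probe (1.37%). The genes with a match are *Map3k6*, *Mt1*, *Sgk1*, *Txnip* and *Ptpdc1*, of which the first 4 faded from higher. Their sequences follow for GRCm38.p6, with the match in capitals, at chr4:133240568-133240817, chr8:94178839-94179088, chr10:21993640-21993889 and chr3:96557707-96557956, all on the plus strand. A match describes letters only.
Map3k6: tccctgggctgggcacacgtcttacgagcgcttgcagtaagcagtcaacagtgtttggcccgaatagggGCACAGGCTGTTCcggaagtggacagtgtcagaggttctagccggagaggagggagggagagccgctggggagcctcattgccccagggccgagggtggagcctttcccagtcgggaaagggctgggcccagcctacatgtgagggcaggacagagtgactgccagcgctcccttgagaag
Mt1: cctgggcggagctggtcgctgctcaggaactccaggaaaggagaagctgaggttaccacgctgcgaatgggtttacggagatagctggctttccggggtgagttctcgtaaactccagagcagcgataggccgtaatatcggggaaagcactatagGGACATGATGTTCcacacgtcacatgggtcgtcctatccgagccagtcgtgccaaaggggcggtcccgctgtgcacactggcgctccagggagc
Sgk1: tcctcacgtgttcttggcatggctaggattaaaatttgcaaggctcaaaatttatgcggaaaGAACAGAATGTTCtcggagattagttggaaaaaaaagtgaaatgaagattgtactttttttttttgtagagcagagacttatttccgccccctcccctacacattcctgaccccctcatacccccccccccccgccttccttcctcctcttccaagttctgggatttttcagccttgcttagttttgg
Txnip: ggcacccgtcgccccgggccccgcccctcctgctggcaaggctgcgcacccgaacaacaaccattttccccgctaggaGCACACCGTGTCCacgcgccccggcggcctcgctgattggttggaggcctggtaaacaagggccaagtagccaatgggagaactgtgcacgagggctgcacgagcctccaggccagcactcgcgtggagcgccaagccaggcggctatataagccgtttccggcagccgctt

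The metal response letters TGCACNC and TGCGCNC occur on either strand in 7032 of the 32851 windows (21.4%) and in 96 of the 366 windows of called genes (26.2%). *Mt2* is shown because its control animals changed as well, as did those of *Mt1*. *Mt1* has 1 such match in its sequence above, left in small letters, so a match is not particular to *Mt2*. *Mt2* has 3 such matches, in capitals, at chr8:94172368-94172617 on the plus strand of GRCm38.p6.
Mt2: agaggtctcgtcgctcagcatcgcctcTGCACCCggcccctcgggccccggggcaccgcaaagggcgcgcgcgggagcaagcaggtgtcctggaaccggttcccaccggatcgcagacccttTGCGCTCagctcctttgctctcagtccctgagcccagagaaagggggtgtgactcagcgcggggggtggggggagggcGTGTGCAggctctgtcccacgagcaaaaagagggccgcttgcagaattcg
*Mt1* and *Mt2* were the 2 of 14 metallothioneins and zinc transporters that passed, beside 1.45% of all genes. *Mt1* had ratios of 0.88, 1.18 and 1.57 during the first and of 0.22, 0.42 and 0.66 during the ninth hour, above 0 on all 16 arrays, a difference of -0.76 (SE 0.0810, adjusted p = 2.5e-09). So the 2 genes differed in where they ended.

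Over all genes 1.45% passed, and the counts of the lists below stand beside that share. Counts at unadjusted p under 0.05 by limma stand beside 2179 of all 23787 genes. *Plin4*, *Pnpla2*, the lipase that opens fat droplets (-0.61), and *Ucp2*, a mitochondrial uncoupler (-0.65), were the 3 called of 25 genes of fatty acid oxidation, ketones and lipid droplets, all fading (median of the list 0.02). *Pnpla2* had ratios of 0.40, 0.80 and 0.99 at first and of 0.03, 0.15 and 0.21 later, above 0 on every array and apart. Of 25 genes of glucose transport, glycolysis and lactate, 2 were called, *Slc2a1*, the glucose carrier of the blood-brain barrier (-0.99, adjusted p = 1.2e-06), and *Pdk4* (-0.89, adjusted p = 2.6e-06), with a list median of 0.01. In glycogen metabolism 1 of 13 passed, *Ppp1r3g*, which steers a phosphatase to glycogen (-0.73, reversing), with a list median of 0.00. The brakes on mTOR and the FoxO and insulin genes had 5 of 23 (median -0.02), *Ddit4*, *Ddit4l*, *Irs2*, which relays insulin (-0.30), *Akt2*, its kinase (0.32), and *Depp1*, a FoxO target (-1.12). *Akt2* and *Ddit4l* had higher and the other 3 lower ratios during the ninth hour. The call of *Depp1* was lost without 4 of the 16 arrays (-1.27 to -0.99). Cholesterol and fatty acid synthesis had 0 of 26 by limma (3 at unadjusted p under 0.05, median -0.01), and respiratory chain genes 0 of 60 (0 at unadjusted p under 0.05, median 0.01).

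Genes of cell cycle arrest, p53 and death had 6 of 23 called (26.1%, beside 1.45% of all genes), 5 lower and 1 higher, with a median of 0.01. Besides *Cdkn1a*, *Pmaip1* and *Fas* these were *Bcl2l1*, a survival factor (-0.26), *Gadd45g*, a growth arrest gene (-0.28, lost with slide as a block and, at -0.30 to -0.25, without 10 of the 16 arrays), and *Bbc3*, the death promoter PUMA (0.31). *Bbc3* grew to higher, with ratios of -0.23, -0.07 and 0.14 and then of 0.17, 0.22 and 0.34, while *Pmaip1*, also a death promoter, faded. The antioxidant list had 1 of 26 (median -0.01), *Maff*, a small Maf factor (-1.18, dim at a signal intensity of 77.7, with the control spot well above background on 5 of 8 first-hour and 6 of 8 ninth-hour arrays), and the NF-κB list 1 of 19 (median 0.03), *Nfkbia*. Among 13 Kruppel-like factors (median 0.03), 4 passed, *Klf9*, *Klf15* and *Klf2*, the flow-sensitive factor of endothelium (-0.75), with lower ratios and *Klf7* (0.23, lost with slide as a block) with a higher one. *Dusp14* (-0.28) was the 1 of 17 dual-specificity phosphatases and sprouty genes (median 0.00), and *Per1* the 1 of 18 clock genes and outputs (median -0.10, and -0.13 to -0.06 when 1 array was left out). Heat and cold shock genes had 0 of 17 by limma (0 at unadjusted p under 0.05, median 0.03), endoplasmic reticulum stress genes 0 of 20 (4, median 0.07) and immediate early genes 0 of 22 (4, median 0.04). When 1 array was left out, these medians were 0.02 to 0.05, 0.03 to 0.12 and 0.01 to 0.06. Within slide 3 the median of the endoplasmic reticulum stress genes was -0.09.

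Interferon-stimulated genes had 0 of 24 called by limma, 4 at unadjusted p under 0.05 (beside 2179 of all 23787 genes), and a median of 0.19. With slide as a block the median was 0.06, and within slides 1, 2 and 3 it was 0.30, 0.08 and 0.14. Leaving out 1 array moved it between 0.06 and 0.42, so the value depends on single arrays, each of which holds 2 animals.

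Of 20 Notch and neural stem cell genes (median 0.01), 4 passed, beside 1.45% of all genes, *Hes5*, *Sox2*, the stem cell factor (0.52), and *Fabp7*, the fatty acid binding protein of radial glia (0.64), returning from lower, and *Id4*, an inhibitor of differentiation (-0.37), growing to lower. *Fabp7* had ratios of -1.03, -0.78 and -0.23 during the first and of -0.29, -0.11 and 0.14 during the ninth hour, with slight overlap. Of 25 Wnt genes (median -0.02), 5 passed, the receptors *Fzd2* (-0.71) and *Fzd4* (-0.44) and the ligand *Wnt2* with lower ratios, and *Fzd9* and *Wnt7a* with higher ones. The call of *Fzd4* was lost without 8 of the 16 arrays (-0.50 to -0.39). The 2 called of 38 neuropeptide and growth factor genes (median 0.04) were the receptors *Fgfrl1* and *Fgfr3*, which moved in opposite directions (0.92 and -0.48). In the list of corticosteroid receptors and their partners, 2 of 18 passed (median 0.03), *Fkbp5* with a lower ratio and *Nr3c1* with a higher one. *Nr3c1* had ratios of -0.85, -0.55 and -0.30 and then of -0.36, -0.19 and 0.02, a difference of 0.36 (adjusted p = 0.0054), lost with slide as a block (0.33). Matrix genes had 3 of 42 (median -0.02), *Sdc4*, a heparan sulphate proteoglycan (-0.86), *Mgp*, which hinders calcification (-0.77), and *Mmp15*, a membrane protease (0.38), of which the last 2 were lost with slide as a block. *Mgp* was also lost without 9 of the 16 arrays (-0.85 to -0.62) and *Mmp15* without 11 (0.33 to 0.42).

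Lists of neuronal signalling and ribosomal genes are to be read beside the 1.45% called of all genes, and the counts at unadjusted p under 0.05 beside 2179 of 23787. By limma, 0 of 33 potassium channel genes were called (3 at unadjusted p under 0.05, median -0.02), 0 of 28 sodium and calcium channel genes (1, median -0.01), 0 of 36 glutamate and GABA receptor genes (4, median 0.05), 0 of 30 synaptic vesicle genes (4, median 0.02) and 0 of 69 ribosomal protein genes (0, median 0.00). Of 40 amine, acetylcholine, adenosine and melanocortin receptors (median -0.12, and -0.12 to -0.08 when 1 array was left out) 1 passed, *Mc4r*. It had ratios of 0.22, 0.67 and 1.16 during the first and of -1.12, -0.54 and -0.10 during the ninth hour, and a difference of -1.28 (SE 0.174, adjusted p = 1.3e-06).

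**Figure D5:**
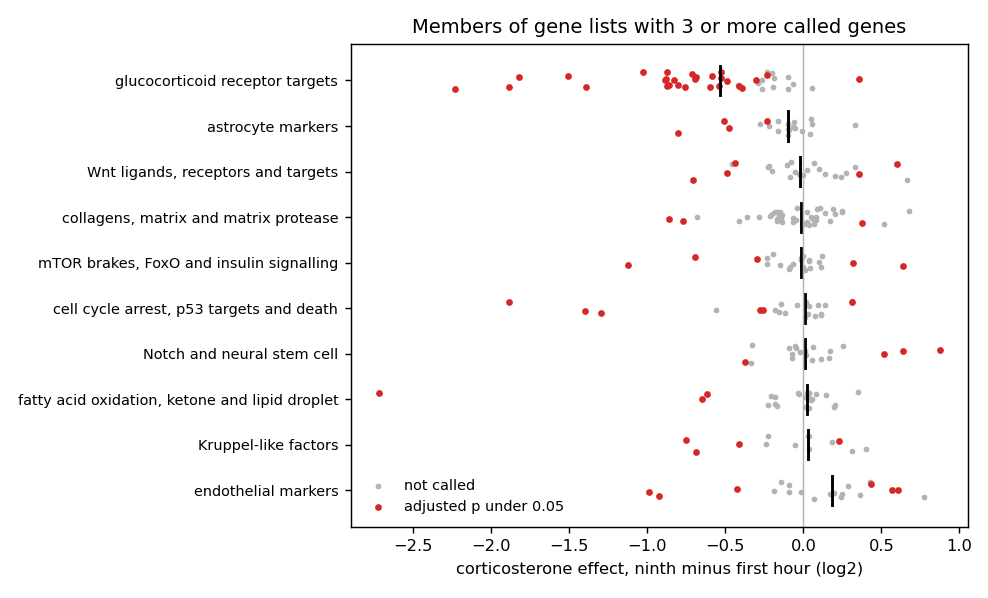
Difference of the corticosterone effect, ninth minus first hour (log2), for every measured member of the lists with 3 or more called genes; red points passed at adjusted p under 0.05, and black bars are list medians. The glucocorticoid receptor targets have a median of -0.53 and the endothelial markers one of 0.18.

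The tissue label was set against markers. All 17 measured markers of excitatory neurons and hippocampal subfields had a signal intensity of 50 or more, among them *Prox1* of the dentate gyrus and *Wfs1* of field CA1. So had 11 of 12 markers of neighbouring regions and 15437 of 23787 genes, so this level alone does not identify the tissue. The summed signal of the 17, led by *Camk2a*, had medians of 182502 and 182882 in control and of 191287 and 188888 in treated animals during the first and ninth hours. By limma 0 of these 17 passed (2 at unadjusted p under 0.05, median -0.02, within slides -0.13, -0.04 and 0.05). Choroid plexus and ependymal markers, led by *Kl*, had summed medians of 1960.4 and 1696 in control and of 1753 and 1739 in treated animals, and 0 of 13 passed (0 at unadjusted p under 0.05, median 0.12, within slides 0.04, -0.12 and 0.04, and 0.06 to 0.19 when 1 array was left out). The highest animals of the ninth hour had 2779.6 (control) and 3524 (treated). Markers of neighbouring regions, led by *Ppp1r1b*, had 7442 and 7408 in control and 8574 and 8269 in treated animals, with 0 of 12 called (2, median -0.11, within slides -0.04, -0.02 and -0.23, and -0.15 to -0.08 when 1 array was left out). Whether dissection was even was not tested.

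Of 20 astrocyte markers 4 passed, all fading from higher, *Gjb6*, a gap junction protein (-0.80, adjusted p = 1.9e-07), *Fgfr3* (-0.48), *Htra1*, a secreted protease (-0.51), and *Glul*, whose call was lost without 14 of the 16 arrays (-0.27 to -0.20). The median of the 20 was -0.10, with slide as a block -0.08 and within slides 1, 2 and 3 -0.06, -0.06 and -0.11. Leaving out 1 array gave -0.12 to -0.07. *Gjb6* had ratios of 0.38, 0.73 and 1.22 during the first and of -0.23, -0.06 and 0.03 during the ninth hour, without overlap. The summed signal of the list, led by *Aldoc*, had medians of 256377 and 252549.5 in control and of 298711 and 265830.3 in treated animals. Of the 20, 16 had lower and 4 had higher ratios during the ninth hour. Some called genes outside the list went the other way, such as *Plpp3*, named below as a lipid phosphatase of astrocytes (0.36). So the 4 called markers do not give the direction of astrocyte genes as a group. In whole tissue, fewer cells of a type and less RNA per cell cannot be told apart.

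Endothelial markers had 6 of 20 called, in both directions. *Mfsd2a*, the barrier's lipid transporter, *Slc2a1* and *Ly6c1* faded from higher, with differences of -0.93, -0.99 and -0.43, whereas *Cldn5*, *Kdr* and *Slco1c1*, the carrier of thyroxine (0.43, lost with slide as a block and, at 0.36 to 0.48, without 9 of the 16 arrays), returned or reversed from lower. *Mfsd2a* had ratios of 0.88, 1.23 and 1.61 at first and of 0.04, 0.30 and 0.65 later, above 0 on all 16 arrays, and the hours did not overlap (SE 0.103, adjusted p = 9.5e-09). *Cldn5* had ratios of -0.74, -0.39 and 0.02 and then of -0.06, 0.24 and 0.52 (SE 0.0953, adjusted p = 2.5e-05). The median of the 20 was 0.18, with slide as a block 0.15 and within slides 0.20, 0.15 and 0.01, and leaving out 1 array gave 0.13 to 0.22. Unadjusted p values under 0.05 were had by 14 of 20, 4 lower and 10 higher, beside 2179 of all 23787 genes. The summed signal, led by *Slc2a1*, had medians of 33785 and 35336 in control and of 39762 and 34029.6 in treated animals. So members of one cell type moved apart.

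Of the other cell types, oligodendrocyte precursors had 2 of 10 (median -0.04, and -0.12 to -0.01 when 1 array was left out). These were *Neu4*, a sialidase (-0.50), and *Gpr17*, a receptor of such precursors (-0.41). Their calls were lost without 6 and 13 of the 16 single arrays, with differences of -0.57 to -0.44 and of -0.46 to -0.37, and the list then held 0 to 3 called genes by limma (3 at unadjusted p under 0.05 with all arrays). Mural cells and fibroblasts had 1 of 16 (median 0.02), *Mgp*, and neuroblasts and dividing cells 1 of 13 (median 0.01), *Top2a*, a topoisomerase of dividing cells (-0.53), which was dim (signal intensity 39.9). The calls of *Mgp* and *Top2a* were lost without 9 and 4 of the 16 arrays (-0.85 to -0.62 and -0.58 to -0.45). The *Top2a* spot of the treated animal was well above background on 4 of 8 ninth-hour arrays. By limma 0 of 18 oligodendrocyte markers passed (6 at unadjusted p under 0.05, median -0.01), 0 of 16 microglial markers (3, median -0.04), 0 of 13 interneuron markers (0, median 0.06) and 0 of 12 blood cell markers (3, median -0.04). When 1 array was left out, these medians were -0.03 to 0.03, -0.08 to -0.01, 0.03 to 0.08 and -0.10 to 0.02.

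The lists held 69 of the 345 called genes, and 276 were in none. The genes named from here on lie outside the lists and the rule and were chosen after their values were seen. Among vascular genes, *Ramp2* and *Ramp3*, partners of the adrenomedullin receptor (-0.49 and -0.59), *Cavin1* and *Cavin2*, coats of caveolae (-0.47 and -0.56), *Nostrin*, which traffics nitric oxide synthase (-0.73), and *Tmem204* (-0.43) had higher signal in treated animals at first and lower ratios later. *Nos3*, that synthase itself (0.25), *Mmrn2*, a matrix protein of endothelium (0.60), the transcription factors *Sox7*, *Ets1* and *Lmo2* (0.47, 0.53 and 0.25), *Vegfc*, a lymphatic growth factor (0.47), and *Unc5b*, a guidance receptor (0.34), had higher ratios later. *Ramp2* had ratios of 0.18, 0.28 and 0.63 during the first and of -0.28, -0.15 and 0.03 during the ninth hour, without overlap (SE 0.0644, adjusted p = 2.8e-07). In *Ramp2* the controls rose by 0.23 (adjusted p = 0.017) and the treated animals changed by -0.26. In *Tmem204* neither change passed, 0.28 in control (adjusted p = 0.12) and -0.15 in treated animals (adjusted p = 0.33). *Nos3*, *Mmrn2*, *Sox7*, *Ets1* and *Lmo2* were lost with slide as a block. *Nos3* (0.23 to 0.29), *Sox7* (0.42 to 0.53) and *Lmo2* (0.20 to 0.27) were also each lost without 10 of the 16 arrays, *Ets1* (0.45 to 0.57) without 7 and *Cavin1* (-0.54 to -0.39) without 4. *Mmrn2* (0.54 to 0.65) was lost without first-hour replicate 6, and *Unc5b* (0.31 to 0.37) without that array or ninth-hour replicate 8.

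The 6 transporter genes so chosen were picked from called genes, so their directions are no result about transporters as a group. Among transporters named above, *Slc2a1*, *Mfsd2a* and *Abcg2* had lower ratios and *Slco1c1* and *Rhcg* higher ones. *Slc40a1*, the iron exporter, had ratios of -0.67, -0.47 and -0.35 during the first and of -0.15, -0.10 and -0.01 during the ninth hour, below 0 on all 16 arrays yet apart, a difference of 0.41 (SE 0.0892, adjusted p = 0.0043). *Slc13a5*, a citrate carrier, *Slc14a1*, the urea channel, *Slc38a3*, a glutamine carrier, and *Slc6a6*, the taurine carrier, had differences of 0.58, 0.43, 0.39 and 0.33, and *Slc38a2*, also a carrier of neutral amino acids, changed by -0.29. The last 2 were lost with slide as a block. *Slc14a1* (0.39 to 0.50) and *Slc38a2* (-0.32 to -0.26) were each lost without 10 of the 16 arrays.

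The 6 enzymes of amino acids and polyamines so chosen were picked from called genes. All 6 faded from higher, which is no result about such enzymes as a group. *Gpt2*, the mitochondrial alanine transaminase, had ratios of 0.38, 0.56 and 0.68 at first and of -0.22, -0.09 and 0.04 later, without overlap, and a difference of -0.64 (SE 0.0748, adjusted p = 2.3e-08). *Prodh* of proline metabolism changed by -0.38, *Oplah* of the glutathione cycle by -0.27, *Azin1* and *Smox* of polyamine metabolism by -0.35 and -0.40, and *Ddc*, which makes dopamine and serotonin, by -0.79. *Oplah* was lost without 11 of the 16 arrays (-0.29 to -0.24).

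Also chosen after their values were seen were 7 genes of radial glia and growth with higher ratios, whereas the list of Notch and neural stem cell genes had a median of 0.01 and held *Id4* with a lower ratio. *Npas3*, *Nr2e1* and *Heyl*, transcription factors of neural progenitors, *Hopx*, a marker of quiescent ones, and the *Sox2* overlapping transcript *Sox2ot* returned from lower, by 0.55, 0.34, 0.64, 0.39 and 0.37. *Gas1*, a hedgehog coreceptor, and *Ccnd1*, cyclin D1, grew to higher, by 0.39 and 0.39. *Npas3* had ratios of -0.74, -0.66 and -0.09 and then of -0.25, -0.02 and 0.16, with slight overlap. *Nr2e1* (0.28 to 0.38) was lost with slide as a block and without first-hour replicate 4, and *Hopx* (0.35 to 0.43) without first-hour replicate 1 or ninth-hour replicate 8. *Gas1* (0.36 to 0.43), *Ccnd1* (0.34 to 0.43) and *Heyl* (0.55 to 0.72) were lost without 11, 12 and 5 of the 16 arrays.

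A signal intensity of 50 or more was reached by 441 of the 468. Other probes of the called genes numbered 163 in 129 genes, and 145 (89.0%) had the sign of the brightest one, whereas 38 of the 163 passed the test themselves. The test of any single slide rests on as few as 2 arrays an hour, and only 4 to 57 probes passed there.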

How the data were processed

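The authors read each array with the Agilent Feature Extraction software, and the deposited scanner files hold median spot and local background intensity per channel, processed intensity, and other columns of flags (0 or 1) for outliers and signal above background. The authors' table holds log2 ratios per probe, with column medians of 0.00239 to 0.00889. The authors' methods name loess normalization within and quantile normalization between arrays. Which of these steps and which offset the deposited table went through is not stated. Its values lay closest to ratios with offset 50 and loess, and less close with quantile normalization. Aquantile normalization leaves the ratios unchanged, so the comparison cannot show whether it was used. Here the median intensities were background corrected (normexp, offset 50 for p values and 0 for sizes and standard errors), loess normalized within and quantile normalized between arrays. Control spots (3671) were removed, outlier spots were missing and copies were averaged. The 6 groups of all 24 arrays were fitted as separate channels (R 4.3.3, limma 3.58.1, the package data.table in version 1.17.8, jsonlite 2.0.0; intraspot correlation 0.279), with Benjamini-Hochberg adjustment over 56605 probes. The steps were also run on simulated data, and the outcome of that run is not given here. Python 3.11.15 with pandas 2.3.3, numpy 2.4.6 and matplotlib 3.10.9 made summaries and figures.

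Symbols from RefSeq matched 34566 probes and 23787 genes, each taken by its brightest probe. Named are the 8 genes with the largest difference in each class and direction (signal intensity of 50 or more), then members of 29 functional and 12 cell type lists, then genes stated as chosen after their values were seen. Members and lists were chosen with earlier results of these data known. No paired analysis was possible because the labels give no pairing of animals between hours. Promoters came from RefSeq GRCm38.p6 and matched 276 of the 367 genes with any called probe, 22 of which were not called by their brightest probe. Alternatives covered offset, background correction, normalization, filters, log ratios, slides, single arrays, outlier spots, variance trend, other probes, class rule and the authors' ratios.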

Additional observations from a re-analysis of the deposited data

Results flagged for a closer look

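By the limma test of the difference itself, 468 probes had another effect of corticosterone during the ninth hour than at first. Every first-hour array and every ninth-hour array had opposite signs in 41 of the 468 (8.76%) and in 49 of all 56605 probes (0.0866%). Among them were 16 named genes, which were picked for a wide difference, from lists or after their values were seen. From higher to lower these were *Mt2* (-1.82), *Tsc22d3* (-1.51), *Fas* (-1.40), *Paqr5* (-1.39), *Plekhf1* (-1.39), *Atp10a* (-1.33), *Mc4r* (-1.28), *Nfkbia* (-1.03), *Fkbp5* (-0.88), *Rasd1* (-0.85), *Errfi1* (-0.60) and *Spns2* (-0.48). From lower to higher they were *Fgfrl1* (0.92), *Pcdh12* (0.90), *Meox1* (0.83) and *Ets1* (0.53). The values are differences of the log2 ratio, and limma called each of them. The call of *Ets1* was lost with slide as a block and without 7 of the 16 single arrays (0.45 to 0.57).

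Single arrays stood apart from the other 7 of their hour in 15 of 284 groups of 8 log2 ratios, where chance gives about 1 in 20 groups. The gap to the nearest array, as a share of the range, is given here. First-hour replicate 5 was the lowest for *Tmem52* (0.529), *Plekhf1* (0.577), *Hif3a* (0.546), *Arrdc2* (0.546) and *Arhgef3* (0.561). First-hour replicate 8 was the highest for *Ddit4* (0.555), *Errfi1* (0.580) and *Htra1* (0.529), and first-hour replicate 4 the lowest for *Txnip* (0.632). Ninth-hour replicate 8 was the lowest for *Alpl* (0.632), *Atp10a* (0.528) and *Txnip* (0.565), and ninth-hour replicate 4 for *Mt2* (0.528). Ninth-hour replicate 6 was the highest for *Smox* (0.639) and *Spns2* (0.533). The cause was not tested.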

How the results depend on the processing

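The 468 called probes kept their sign in every alternative with arrays of all 3 slides and in those without a slide (441 of 441 and 456 of 456 in the filters on signal). Called probes numbered 399 to 630 over the processing alternatives and 343 to 480 when 1 array was left out. Growing probes numbered 42 to 72 when 1 array was left out and moved most without ninth-hour replicates 2 (44), 4 (42) and 6 (47). With the 16 arrays of the 2 hours alone, 522 were called, and 495 from log ratios. Without slide 1, 123 probes were called (102 fading, 11 growing, 8 reversing), without slide 2, 259 (176 fading, 35 growing), and without slide 3, 176 (118, 29 and 27). Within slide 1 alone 57 were called (38, 3 and 12), within slide 2 limma called 4 (4, 0 and 0, with 3907 at unadjusted p under 0.05), and within slide 3 26 (26, 0 and 0, with 2695). Sorted by the size and sign of the effects alone, 114 of the 468 faded, 6 grew and 348 reversed, because that sorting needs no test at a single hour.

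Fading probes numbered 251 to 342 and reversing probes 49 to 74 when 1 array was left out. Of the 142 named genes, 36 lost their call without some single array, 34 under some other setting of 24 arrays and 99 without some slide. The number of single arrays, of 16, whose omission lost the call is given in brackets for the genes beyond the 8 named so in the classes: *Glul* (14), *Wnt7a* (13), *Depp1* (4), *Gadd45g* (10), *Fzd4* (8), *Mmp15* (11), *Mgp* (9), *Gpr17* (13), *Neu4* (6), *Slco1c1* (9), *Top2a* (4), *Cavin1* (4), *Nos3* (10), *Mmrn2* (1), *Sox7* (10), *Ets1* (7), *Lmo2* (10), *Unc5b* (2), *Slc14a1* (10), *Slc38a2* (10), *Oplah* (11), *Nr2e1* (1), *Hopx* (2), *Heyl* (5), *Gas1* (11), *Ccnd1* (12), *Lpl* (11) and *Rhoq* (3). Calls that held without any single array but not under every other setting of 24 arrays were those of *Nr3c1*, *Klf7*, *Dusp14*, *Irs2* and *Slc6a6*. None of these differences changed sign. Of 64 other probes of named genes 37 had the same sign without a call. Other probes of 6 genes had the opposite sign, none of them called: *Alpl* (-0.22), *Cavin1* (0.10), *Cdkn1a* (0.18), *Kdr* (-0.10), *Top2a* (0.15) and *Tsc22d3* (0.19). The cause was not tested. The 24572 probes with a signal under 50 limit what the ratios without offset can show.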

Other observations

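Some called genes of lipid signalling and of small GTPases lie outside the lists and the rule and were chosen after their values were seen. *Spns2*, the exporter of sphingosine phosphate, had ratios of 0.14, 0.26 and 0.62 (lowest, median and highest) during the first and of -0.23, -0.20 and -0.01 during the ninth hour, above 0 and then below 0 on every array, a difference of -0.48 (SE 0.0642, limma adjusted p = 3.9e-07). *Sgms1*, which makes sphingomyelin, and *Adipor2*, an adiponectin receptor, changed by -0.37 and -0.61. *Plpp3*, a lipid phosphatase of astrocytes, and *Lpl*, the lipoprotein lipase, had differences of 0.36 and 0.27, the latter lost with slide as a block and without 11 of the 16 single arrays (0.22 to 0.32).

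*Rasd1*, a Ras-like protein induced by glucocorticoids, had ratios of 0.08, 0.46 and 0.92 and then of -0.79, -0.40 and -0.10, above 0 and then below 0 on every array, and a difference of -0.85 (SE 0.198, limma adjusted p = 0.011). *Arl4d*, an Arf-like GTPase, had changed almost fully by the fifth hour, with effects of 1.03, 0.23 and 0.22. The exchange factors *Net1* and *Arhgef3* changed by -0.60 and -0.42, and *Rhoq*, a GTPase in glucose uptake, had a difference of 0.28. The call of *Rhoq* was lost without first-hour replicates 4 and 7 and without ninth-hour replicate 3, at 0.25 to 0.31 over all omissions.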
